A study of Rattus norvegicus with 27 samples.

Results

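The comparison described here asks by how much the response of total RNA to global brain ischemia and reperfusion differed between the CA1 and CA3 fields of the rat hippocampus. For each transcript, the change after ischemia in CA3 was subtracted from the change after ischemia in CA1, so that a positive difference marks a transcript that rose more, or fell less, in CA1. All 18511 probe sets with 1 gene symbol, of 36685 on the array, were compared, on the 14 total RNA arrays of the 27 in the study. The other 13 arrays held polysome RNA.

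Male Long Evans rats were sham operated, as a non-ischemic control (NIC), or had 10 min of complete normothermic global ischemia, by occlusion of the carotid arteries with hypovolemic hypotension to a mean arterial pressure of 45 mm Hg, and then 8 h of reperfusion (8R). The age of the rats is not given in the sources used here. Dissected CA1 or CA3 tissue of 5 rats was pooled for each replicate, and total RNA came from a post-mitochondrial supernatant of the pool. There were 3 NIC and 4 8R pools for each region. From each pool 1 µg of RNA was labelled, so the values compare the make-up of equal amounts of RNA, and in such tissue fewer cells of a type and less RNA per cell cannot be told apart. The labels number the pools alike in both regions but do not say that a CA1 and a CA3 pool of the same number came from the same rats. The p-values of the change in a region measure the spread between pools. Those of the difference between regions measure the spread, between pool numbers, of CA1 minus CA3 within a number.

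The CA1 and CA3 fields hold the pyramidal neurons of the hippocampus. After brief global ischemia, CA1 pyramidal neurons are known to die days later, whereas most CA3 pyramidal neurons survive. Both fields are known to induce heat shock proteins, which refold or hold damaged proteins, genes of the integrated stress response, which reshapes translation and amino acid supply, and activity-regulated genes, which follow synaptic excitation and calcium entry.

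The region labels were checked against marker genes. Wfs1, a CA1 pyramidal marker, had a mean intensity of 600.1 in NIC CA1 and 181 in NIC CA3. Its level on the log2 scale lay higher in CA1 by 1.64 in NIC (adjusted p = 3e-06) and by 1.67 in 8R (adjusted p = 2.24e-07). Of 19 CA1 pyramidal markers, 8 were higher in CA1 in NIC (1.31% of all probe sets) and 9 in 8R (2.09%). Of 27 probe sets of CA3 markers, 9 were lower in CA1 in NIC (0.664% of all) and 12 in 8R (1.84%). Over all probe sets the 2 regions differed at 1.97% in NIC and at 3.93% in 8R. The summed intensity of CA1 markers ran from 2474 to 3493 in the 8R CA1 arrays and from 1481 to 1865 in the 8R CA3 arrays, without overlap. Array medians were between 29.98 and 33.7. The median SD of a probe set between pools was 0.105 (log2) in NIC CA1, 0.111 in NIC CA3, 0.151 in 8R CA1 and 0.142 in 8R CA3.

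More transcripts passed the test of a change after ischemia in CA1 than in CA3, and the 2 regions mostly moved the same way. In CA1, 3563 probe sets changed (19.2% of those tested), of which 2679 rose (14.5%) and 884 fell (4.78%). In CA3, 1864 changed (10.1%), of which 1676 rose (9.05%) and 188 fell (1.02%). The counts came close to each other without 8R pool 4 (5274 in CA1 and 4568 in CA3) and with array weights (4803 and 4591). The split depended on the scaling of the arrays: after quantile normalization 2088 rose and 1833 fell in CA1, and 871 rose and 580 fell in CA3, and after centring each array on its median the numbers were 2342 and 1292 in CA1 and 1062 and 318 in CA3. Of the probe sets called in both regions, 1382 rose in both, 111 fell in both and 0 moved in opposite directions. Among those that rose in both, 1039 (75.2%) rose further in CA1, with a median change of 0.58 (log2) in CA1 and 0.48 in CA3. Among those that fell in both, 90 (81.1%) fell further in CA1. Across all probe sets the change in CA1 and the change in CA3 had a Pearson correlation of 0.792, a description across genes, which are not independent replicates. Here and below, levels and changes are on the scale of log2(intensity + 16), which understates the change of dim transcripts, and a call is an adjusted p under 0.05 over all 18511 probe sets.

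The difference between the regional changes was called for 37 probe sets (0.20% of those tested), 31 of them higher in CA1 (0.167%) and 6 lower (0.0324%). All 31 rose in CA1. Of these, 20 rose in CA3 as well, and 0 fell there. The sizes ran from 0.56 to 2.46 (log2) among the higher and from 0.59 to 0.88 among the lower. This fit compares CA1 with CA3 within each pool number, as a fixed block. Without the block, 2 probe sets were called, Rgs2 and Timd2, and with the pool number as a random block 8 were, namely Rgs2, Lox, Timd2, Hspd1, Pnrc2, Ociad2, Cdon and Ankrd33b. All 37 kept their direction in those fits and their size without the block, which changes only the error. Over all probe sets an unadjusted p under 0.05 was found for 8.74% with the block and 5.19% without it. Mt1 had the highest p of the 37 without the block, 0.156 unadjusted. With the block, quantile normalization gave 60 higher and 26 lower, and leaving out 1 pool gave 11 calls (without 8R pool 1) to 62 (without 8R pool 4, 31 in each direction), with 12, 18 and 12 without NIC pools 1, 2 and 3. Pools of the same number did not all deviate together, so most of the calls below hold only if the pool numbers pair the regions.

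The gap between regions, CA1 minus CA3 within a pool, is the value that the blocked fit compares. In all 37, the gaps of the 4 8R pools lay on 1 side of the gaps of the 3 NIC pools (8.90% of all probe sets), which describes the genes that the fit called and adds no support to the calls. The gap in NIC itself was called for 2 of the 31 higher genes, Rpl23a and Rpl37l4, both dimmer in CA1 (0.664% of all probe sets). After ischemia 24 of the 31 were called brighter in CA1 (2.09% of all), and some of the others were brighter without a call. Over all probe sets the median difference was -0.02 (log2), and 44.4% of the differences were positive.

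**Figure D1:**
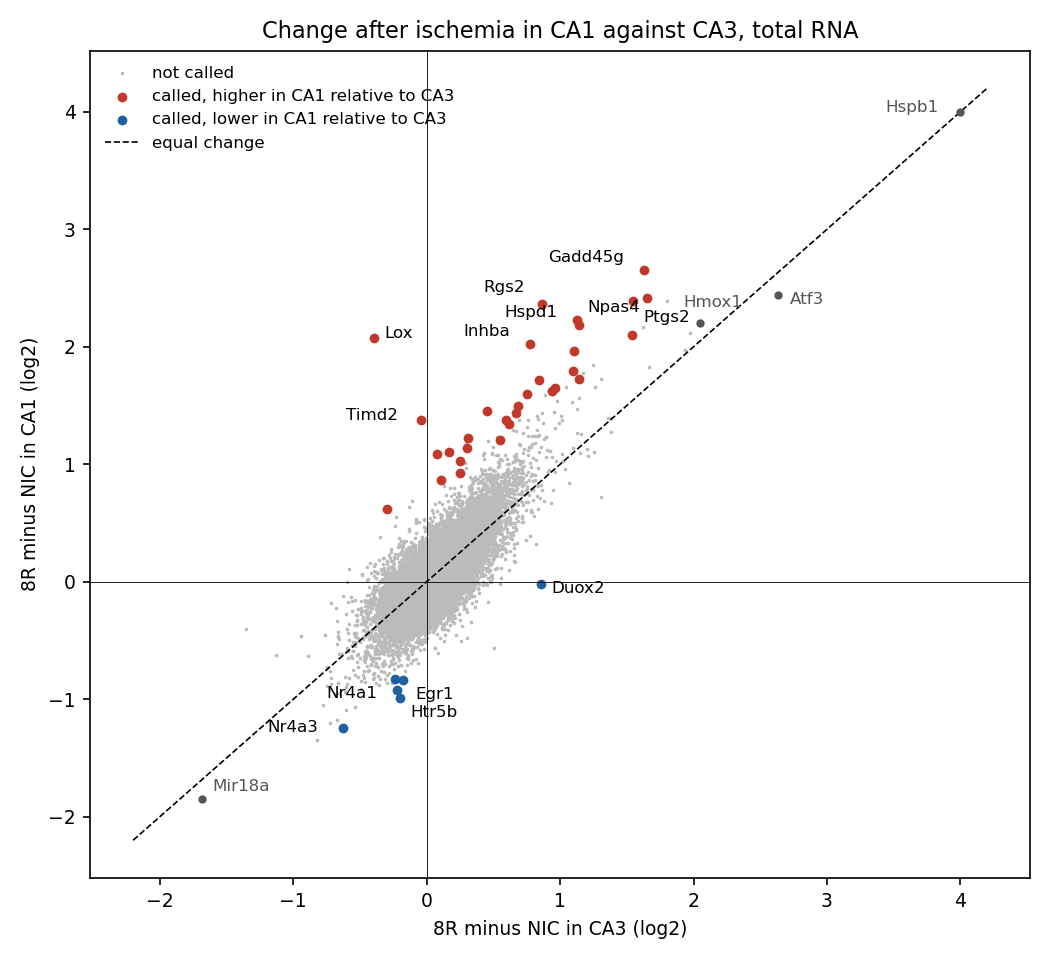
Change after ischemia, 8R minus NIC on the log2 scale, in CA3 (x axis) and CA1 (y axis) for each of the 18511 probe sets. Red points are the 31 called higher in CA1 relative to CA3, blue points the 6 called lower, and darker grey points 4 named genes that were not called. Most points follow the dashed line of equal change, and Lox, at 2.07 in CA1 and -0.39 in CA3, stands farthest from it.

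The difference with the lowest p-value was that of Rgs2, a regulator of G protein signalling that speeds the GTPase of Gq proteins and is induced by neuronal activity. Its intensity was 89.3, 83.3 and 86.1 in the NIC arrays of CA1, and 541, 628, 406 and 489 in the 8R arrays. In CA3 it was 126, 108 and 119 in NIC and 276, 226, 204 and 206 in 8R. Every 8R array lay above every NIC array in both regions, and the regions changed order: CA3 was the brighter in NIC and CA1 in 8R. Rgs2 rose 5.15-fold in CA1 and 1.82-fold in CA3, a difference of 1.50 ± 0.13 (SE, log2; 3 NIC and 4 8R pools) with an adjusted p of 6.73e-06, and 0.000752 without the pool block. It was called in each of the 7 fits that left out a pool and in the 11 fits with another setting.

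Other activity-regulated genes followed. Npas4, a transcription factor induced by calcium entry in neurons, read 62.7, 45.5 and 81.9 in NIC and 296, 228, 361 and 599 in 8R in CA1, and 38.2, 37.8 and 41.9 in NIC and 122, 46.6, 90.5 and 214 in 8R in CA3. The 4 8R arrays of CA1 spread widely, but in each pool CA1 was well above CA3. The difference was 1.10 ± 0.17 (adjusted p = 0.00885). Ptgs2, the inducible cyclooxygenase of prostaglandin synthesis, read 116, 93.9 and 102 in NIC and 700, 458, 440 and 983 in 8R in CA1. The CA3 arrays read 68.3, 46.1 and 64.2 in NIC and 248, 198, 110 and 306 in 8R. The CA1 arrays of Ptgs2 lay above those of CA3 before and after ischemia. Ptgs2 rose 5.25-fold there and 2.92-fold in CA3 (difference 0.85 ± 0.15, adjusted p = 0.0174). Nptx2, a secreted pentraxin that gathers AMPA receptors at synapses, rose 2.71-fold in CA1 and 1.59-fold in CA3 (0.77 ± 0.15, adjusted p = 0.041). Of 22 activity-induced genes, 5 were called higher (0.167% of all probe sets) and 0 lower, and 15 had a positive difference (44.4% of all). The median of the list was 0.06, against -0.02 over all probe sets. In 7 members, the 5 called among them, every 8R gap lay above every NIC gap (4.08% of all). In 3 members every 8R gap lay below (4.82% of all). The count of 0 lower depends on how the lists were cut. Nr4a1, which is also induced by activity, Egr1 and Nr4a3 were counted among the immediate early factors. They were called lower, at -0.70, -0.66 and -0.62.

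Members of activin and transforming growth factor signalling were also among the called genes, a group put together after their values were seen. Inhba, the subunit that forms activin A, read 28.9, 30.2 and 26.5 in NIC and 198, 111, 122 and 269.8 in 8R in CA1, and 29.2, 31.1 and 44.7 in NIC and 74.2, 77.1, 52.4 and 81.8 in 8R in CA3. Starting from like levels, the 2 regions were apart after ischemia, with no overlap of their 8R arrays. The difference was 1.25 ± 0.20 (adjusted p = 0.00915). Pmepa1, an inhibitor of that signalling which it induces, rose 2.20-fold in CA1, and its change in CA3 was 0.30 (log2, adjusted p = 0.313). Acvr1c, a type I receptor of the family, read 33.8, 29.0 and 25.9 in NIC and 58.4, 37.2, 41.0 and 90.1 in 8R in CA1, and 50.9, 63.2 and 48.7 in NIC and 35.3, 39.2, 35.0 and 57.3 in 8R in CA3. It rose in CA1 from below the CA3 level, while the change in CA3 was -0.29 (adjusted p = 0.327). Its difference was 0.92 ± 0.17 (adjusted p = 0.0281).

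**Figure D2:**
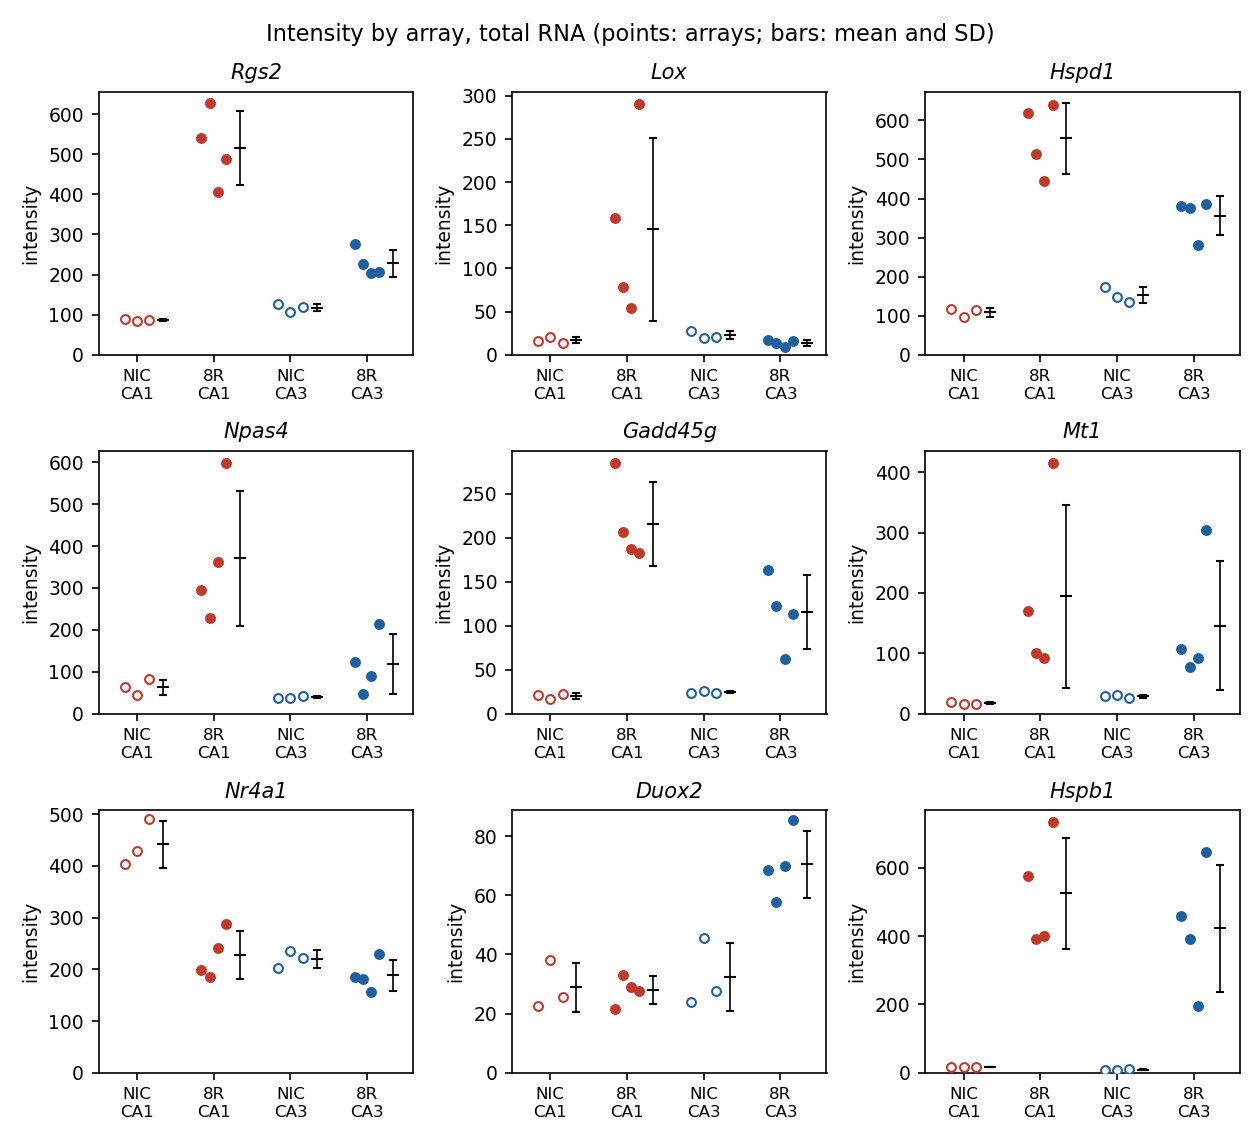
Intensity on a linear scale (y axis) of 9 genes in every total RNA array, by condition and region (x axis). Open points are NIC arrays, filled points 8R arrays, red CA1 and blue CA3, and the bars give the mean and SD of each group. Rgs2 and Lox separate the regions after ischemia, whereas Hspb1 reached overlapping levels in both, 391 to 733 in CA1 and 195 to 645 in CA3.

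The chaperone genes Hspd1, Hspe1, Hsph1 and Dnaja1 rose in both regions and further in CA1. Hspd1 and Hspe1 encode Hsp60 and Hsp10, the 2 parts of the mitochondrial folding chamber, and are neighbours transcribed head to head on chromosome 9. The start sites of the RefSeq promoter entries are 290 bases apart, but the gene record of Hspd1 begins farther out, at 64084332, past the start of Hspe1 at 64084327, so the shared motif lies inside the Hspd1 record. Because the heat shock factor acts through a repeated motif, the 250 bases before each RefSeq start site (GRCr8) were searched on both strands for 3 blocks GAA, TTC and GAA, or TTC, GAA and TTC, with 2 bases of any kind between neighbouring blocks. The motif was found in 0.597% of 27457 promoters, and, among the 31 called genes with a promoter entry, in Hspd1, Hspe1 and Hsph1. It was 1 of 9 motifs searched. Of the others, the full cAMP response element was in 0 of the 31 (1.7% of all promoters), its shorter form TGACG in 12 (19%), the metal response element in 12 (21.2%), the CCAAT box in 14 (34.3%), the AP-1 site in 2 (6.36%), and the C/EBP-ATF, serum response and EGR elements in 1 each (3.27%, 1.5% and 0.514%). A match is a description and no evidence of binding. The stretches with the motif are shown, with matching bases in capitals, because the first 2 are the same site read from either strand. Hspd1 (chr9:64084258-64084287, minus strand) and Hspe1 (chr9:64084254-64084283, plus strand) each hold 2 overlapping matches, and Hsph1 (chr12:10427118-10427367, plus strand) holds 1.
Hspd1: gcggggccTTCCGGAAGGTTCTAGAAccga
Hspe1: gcgctcggTTCTAGAACCTTCCGGAAggcc
Hsph1: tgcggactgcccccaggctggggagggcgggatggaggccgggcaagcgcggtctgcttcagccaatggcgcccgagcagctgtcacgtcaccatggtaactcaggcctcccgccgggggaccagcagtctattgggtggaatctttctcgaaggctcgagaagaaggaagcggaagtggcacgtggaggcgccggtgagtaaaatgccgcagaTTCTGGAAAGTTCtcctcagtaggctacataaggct

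Hspd1 read 117, 95.6 and 114 in NIC and 619, 515, 446 and 639 in 8R in CA1. In CA3 it read 174, 148 and 134 in NIC and 380, 377, 281 and 385 in 8R. It was the dimmer in CA1 before ischemia and the brighter after it, with no overlap of the regions in either condition. The rise was 4.54-fold in CA1 and 2.21-fold in CA3, and the difference 1.04 ± 0.12 (adjusted p = 0.000228), or 0.0874 without the block. A second probe set of Hspd1 gave 0.60 (adjusted p = 0.0641). Its partner Hspe1 read 326, 278 and 364 in NIC and 889, 787, 731 and 1064 in 8R in CA1, and 415, 418 and 461 in NIC and 658, 618, 521 and 892 in 8R in CA3. The 8R arrays of the regions overlapped, with pool 4 the brightest in both, and CA1 exceeded CA3 in each 8R pool and lay below it in each NIC pool. The difference was 0.78 ± 0.11 (adjusted p = 0.0017).

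In the cytosol, Hsph1, the Hsp110 that recharges Hsp70, read 458, 422 and 451 in NIC and 2122, 1780, 1719 and 2223 in 8R in CA1. The CA3 arrays read 431, 484 and 490 in NIC and 1551, 1382, 1018 and 1698 in 8R. The regions began level and every 8R array of CA1 ended above those of CA3 (difference 0.56 ± 0.11, adjusted p = 0.0492). Dnaja1, an Hsp40 that delivers clients to Hsp70, rose 3.32-fold in CA1 and 2.21-fold in CA3 (0.59 ± 0.11, adjusted p = 0.0362). Of 19 probe sets of cytosolic Hsp40, Hsp70, Hsp90 and Hsp110 genes, 17 rose in CA1 and 15 in CA3, 2 were called higher in the difference, and 17 had a positive one, with a median of 0.17. Of 13 probe sets of mitochondrial chaperones and proteases, 8 rose in CA1 and 7 in CA3, 2 were called higher in the difference and 10 were positive, with a median of 0.10. Over all probe sets 14.5% rose in CA1, 9.05% in CA3, 0.167% were called higher and 44.4% had a positive difference. Hspa8, the constitutive Hsp70, rose in both regions, by 0.59 in CA1 and 0.51 in CA3, with a difference of 0.08 (adjusted p = 0.876).

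Among the small heat shock proteins no regional difference was called. Hspb1, or Hsp25, which binds unfolding proteins without ATP, had the largest rise among the genes called in both regions with a difference under 0.2. It read 17.8, 16.6 and 15.9 in NIC and 575, 391, 401 and 733 in 8R in CA1, and 8.57, 8.08 and 11.4 in NIC and 458, 391, 195 and 645 in 8R in CA3. All 8R arrays were far above all NIC arrays, and the 8R arrays of the regions overlapped. On the log2(intensity + 16) scale the difference was -0.003 (95% interval -0.37 to 0.37). Since the NIC values lay below the array medians and near the added 16, this value depends on that constant: it was 0.19 with 64 added. Motif and call did not always go together: Hspa8 holds 2 matches and was not called, and Dnaja1 holds 0 and was called. The 250 promoter bases of Hspb1 (chr12:26432302-26432551, minus strand), shown beside the 3 above, hold no match to the motif. This says only that these letters are absent from this window.
Hspb1: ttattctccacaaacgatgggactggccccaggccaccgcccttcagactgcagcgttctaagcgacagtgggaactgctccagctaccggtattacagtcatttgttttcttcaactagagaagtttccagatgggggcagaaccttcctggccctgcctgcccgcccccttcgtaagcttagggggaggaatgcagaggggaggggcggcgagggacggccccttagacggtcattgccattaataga

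Cryab, another small heat shock protein, rose 3.92-fold in CA1 and 3.83-fold in CA3, with a difference of 0.03 (95% interval -0.21 to 0.27). In the list of small heat shock proteins with Bag3, 4 of 8 genes rose in each region (14.5% of all in CA1, 9.05% in CA3). The median difference was 0.01. Bag3, a co-chaperone of Hsp70 and no small heat shock protein itself, had the highest difference of the list, 0.41 (adjusted p = 0.229), with every 8R gap above every NIC gap. Further stress genes picked because their difference was under 0.2 were Hmox1, Zfand2a and Atf3. Hmox1, the heme-degrading enzyme, read 14.7, 17.0 and 14.3 in NIC and 134, 118, 115 and 146 in 8R in CA1, and 16.8, 16.2 and 20.2 in NIC and 151, 124, 89.5 and 139 in 8R in CA3. The regions overlapped in both conditions, and the difference was 0.15 (95% interval -0.16 to 0.45). Zfand2a, a stress-induced partner of the proteasome, had 0.15 (-0.13 to 0.42). Atf3, a transcription factor of the integrated stress response, rose 5.42-fold in CA1 and 6.20-fold in CA3, with -0.19 (-0.66 to 0.28), and 0.21 with 1 in place of 16 added to the intensity. The upper ends of these 5 intervals allow a larger rise in CA1 by between 0.27 and 0.45. The lower ends, from -0.13 to -0.66, allow a larger rise in CA3.

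The sixth gene of near-equal change, the microRNA gene Mir18a, read 80.4, 86.7 and 80.8 in NIC and 0.62, 0.78, 0.87 and 102.5 in 8R in CA1, and 98.4, 69.8 and 69.7 in NIC and 0.85, 0.13, 18 and 64.7 in 8R in CA3. The 8R arrays split within each region, with pool 4 at the NIC level or close to it and the others far below. The difference was -0.17 (95% interval -0.69 to 0.35).

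The growth arrest genes Gadd45g and Gadd45a and the tRNA synthetase genes Eprs1 and Cars1 rose in both regions and further in CA1. Gadd45g, a stress sensor that acts on MAP kinase signalling and the cell cycle, read 21.7, 16.6 and 22.7 in NIC and 285, 206, 188 and 182 in 8R in CA1, and 23.9, 26.1 and 23.9 in NIC and 163, 123, 61.8 and 113 in 8R in CA3. It rose 6.29-fold in CA1 and 3.10-fold in CA3, and the 8R arrays of the regions did not overlap. The difference was 1.02 ± 0.17 (adjusted p = 0.0128). Gadd45a, of the same family, differed by 0.69 ± 0.14 (adjusted p = 0.0486), but was called in 0 of the 7 fits that left out a pool. Gadd45b had 0.55 (adjusted p = 0.264). Of 26 genes of p53 targets and apoptosis regulators, Gadd45g and Gadd45a were called (0.167% of all higher), 13 were positive (44.4% of all), and the median was 0.002. The list does not hold every p53 target, and Perp, described below, is outside it.

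Eprs1, which charges the tRNAs of glutamate and proline, read 111, 106 and 122 in NIC and 530.1, 365, 326 and 538 in 8R in CA1. Its CA3 values were 117, 124 and 133 in NIC and 313, 284, 249.8 and 291 in 8R. The regions did not overlap after ischemia, and the difference was 0.70 ± 0.13 (adjusted p = 0.0343). Cars1, the cysteine enzyme, differed by 0.69 ± 0.14 (adjusted p = 0.0405), and Tars1, the threonine enzyme, had 0.58 (adjusted p = 0.0655). Of 19 aminoacyl-tRNA synthetases, 14 rose in CA1 and 13 in CA3, 2 were called higher in the difference, 14 were positive and the median was 0.10. Of 21 integrated stress response genes, 12 rose in CA1 and 11 in CA3, and 0 were called in the difference. Ppp1r15a, the phosphatase subunit that restores translation, had the largest difference, at 0.72 (adjusted p = 0.122). The shares over all probe sets were 14.5% rising in CA1, 9.05% rising in CA3, 0.167% called higher and 44.4% positive.

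Mt1, a metallothionein that binds zinc and copper, read 20.0, 16 and 16.7 in NIC and 171, 100.5, 91.9 and 415 in 8R in CA1. In CA3 it read 28.8, 31.8 and 26.7 in NIC and 108, 77.1, 92.8 and 304 in 8R. Pool 4 was far above the other 8R pools in both regions, in pool 3 the regions were level, and the 8R arrays of the regions overlapped. The difference was 0.76 ± 0.15 (adjusted p = 0.041). It was called in 1 of the 7 fits that left out a pool, and a second probe set gave 0.59 (adjusted p = 0.192).

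A further group of genes changed in CA1, with a change in CA3 that did not pass the test. Lox, which cross-links collagen and elastin outside the cell, had the largest difference of all. It read 16.4, 20.3 and 13.7 in NIC and 158, 78.0, 54.6 and 290.2 in 8R in CA1, and 27.9, 19.8 and 21.0 in NIC and 17.5, 13.1, 8.43 and 15.7 in 8R in CA3. In CA1 all 8R arrays stood above all NIC arrays, over a wide range. In CA3 the 8R arrays all lay below the NIC arrays, but the change of -0.39 was not called (adjusted p = 0.448). The difference was 2.46 ± 0.28 (adjusted p = 0.000228), or 0.0517 without the block. The collagen and fibroblast transcripts Col1a2, Col3a1 and Dcn had differences of 0.07, 0.17 and 0.02 with adjusted p-values of 0.95, 0.788 and 0.992. Lum and Col1a1, of the same kind, went the other way. The gaps of Lum were 0.17, 0.03 and -0.01 in NIC and -0.57, -0.47, -0.52 and -0.05 in 8R, at intensities of 1.89 to 15.5. Those of Col1a1 overlapped, at 0.09, -0.07 and 0.40 in NIC and -0.07, -0.23, 0.24 and -0.42 in 8R.

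Timd2, a receptor of the T cell immunoglobulin and mucin family that takes up H-ferritin, read 1.95, 1.81 and 4.44 in NIC and 30.1, 31.2, 22.7 and 50.02 in 8R in CA1, and 14.1, 8.24 and 15.1 in NIC and 10.7, 5.78, 12.2 and 18.8 in 8R in CA3. These intensities were below or near the median of the arrays. CA1 went from below CA3 to above it, with no overlap, whereas CA3 stayed in its NIC range except for 1 array below and 1 above. The difference was 1.42 ± 0.16 (adjusted p = 0.000228), and 0.0235 without the block. Perp, a membrane protein of desmosomes and a p53 target, rose 2.12-fold in CA1 and had a change of 0.08 in CA3 (difference 1.00 ± 0.20, adjusted p = 0.0486).

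Sox11, a transcription factor of immature neurons, read 25.2, 19.5 and 27.7 in NIC and 133, 79.7, 62.1 and 112 in 8R in CA1. In CA3 it read 34.7, 17.8 and 30.6 in NIC and 50.9, 56.5, 31.4 and 36.8 in 8R. The 8R arrays of the regions did not overlap, and the change of 0.46 in CA3 was not called (difference 0.99 ± 0.19, adjusted p = 0.0334). Cdon, a cell surface co-receptor for Hedgehog, rose 2.34-fold in CA1, with a change of 0.31 in CA3 (difference 0.91 ± 0.15, adjusted p = 0.00885). Ankrd33b rose 2.04-fold in CA1, from 128 to 135 in NIC to 250.2 to 353 in 8R, and its 8R arrays of CA3 lay between 138 and 157.

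Calb1 encodes the calcium buffer calbindin, which marks dentate granule cells and part of the CA1 pyramidal cells. It read 243, 181 and 195 in NIC and 567, 376, 376 and 548 in 8R in CA1, and 263, 189.7 and 239 in NIC and 336, 274, 273 and 177 in 8R in CA3. The regions overlapped in NIC and were apart in 8R, and pool 4 held both the lowest CA3 and a high CA1 value. The difference was 0.94 ± 0.19 (adjusted p = 0.0492), called in 2 of the 7 fits that left out a pool. Among 13 dentate markers Calb1 was the 1 called (0.167% of all higher), and the median difference of the list was -0.02. The summed intensity of these markers ranged from 1513 to 1817 in NIC CA1, from 1477 to 1980 in 8R CA1, from 1370 to 1565 in NIC CA3 and from 1156 to 1540 in 8R CA3. Prox1, the defining granule cell factor, was brighter in CA1 in NIC, by 0.73 (adjusted p = 0.049), and had a difference of -0.14 (adjusted p = 0.913). The part of these cells in the Calb1 result was not tested.

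The rest of the 31 were Dok5, Ociad2, Pnrc2, Glce, Ier5, Frmd6, Rpl23a and Rpl37l4. Ociad2 read 105, 99.4 and 109 in NIC and 463, 443, 404 and 516 in 8R in CA1, and 140.0, 130.5 and 151 in NIC and 361, 304, 241 and 399.6 in 8R in CA3. CA1 began below CA3 and ended above it in every array (difference 0.86 ± 0.12, adjusted p = 0.0017). Pnrc2, which couples mRNA decapping to decay factors and co-activates nuclear receptors, rose 3.03-fold in CA1 and 1.69-fold in CA3 (0.84 ± 0.11, adjusted p = 0.00103). Dok5, an adaptor of receptor tyrosine kinases, differed by 0.87, Glce, an epimerase of heparan sulfate, by 0.82, and Frmd6, a FERM domain protein of the Hippo pathway, by 0.66. Rgs2, Lox, Timd2, Hspd1, Hspe1, Ociad2 and Pnrc2 were the 7 called whichever pool was left out. Of the 37, Gadd45a and Frmd6 were called in 0 of those 7 fits, and Nptx2, Mt1, Rpl23a, Ier5 and Fxyd7 in 1.

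**Figure D3:**
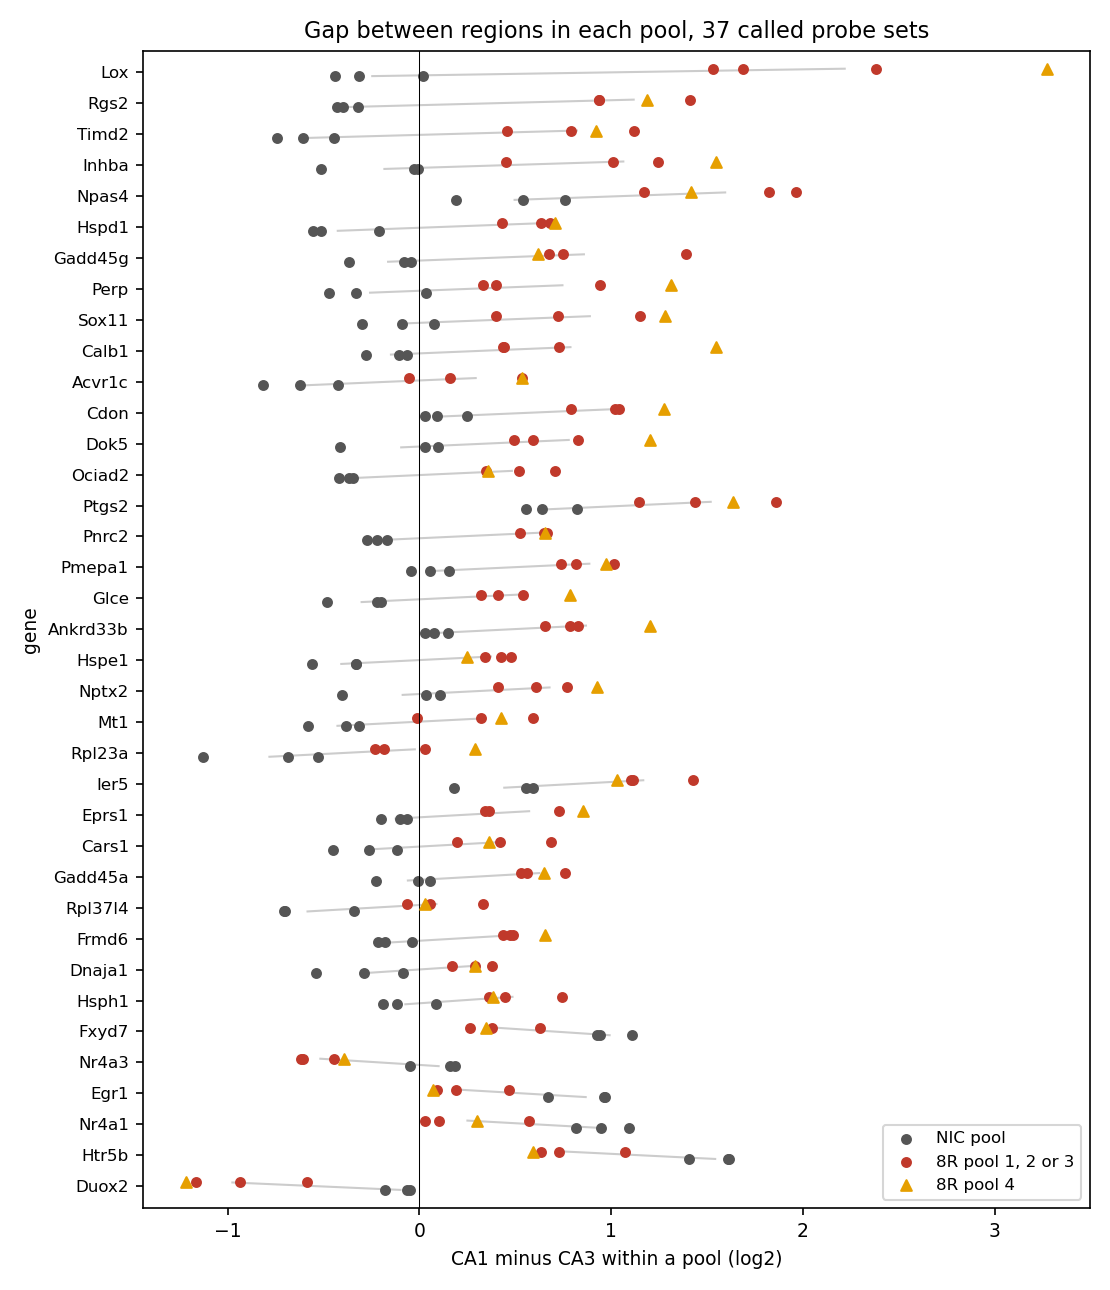
Gap between regions, CA1 minus CA3 on the log2 scale (x axis), in each pool for the 37 called probe sets (y axis, ordered by difference). Grey points are the 3 NIC pools, red points the first 3 8R pools and orange triangles 8R pool 4, and the thin lines join the means. No gene has overlapping NIC and 8R gaps, and for Lox pool 4 has the widest gap, 3.27, with the other 8R pools between 1.53 and 2.38.

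Of the 6 genes with a lower difference, 4 were called brighter in CA1 in NIC (1.31% of all probe sets). Without 8R pool 1, and without NIC pool 1, 0 of the 6 were called in the difference. Nr4a1, an orphan nuclear receptor induced by activity, read 404, 429 and 491 in NIC and 199, 185, 241 and 287 in 8R in CA1. In CA3 it read 202, 236 and 222 in NIC and 184, 180.5, 157 and 231 in 8R. CA1 thus came down to near the level of CA3, where the change was -0.22 (adjusted p = 0.336). The difference was -0.70 ± 0.13 (adjusted p = 0.0334). Egr1, a zinc finger factor of synaptic plasticity, read 891.5, 837 and 909.7 in NIC and 518, 369, 460 and 626 in 8R in CA1, and 449.9, 519 and 457 in NIC and 452, 345, 328 and 594 in 8R in CA3. The gap between regions on the log2 scale went from 0.87 in NIC (adjusted p = 0.00866) to 0.20 in 8R (adjusted p = 0.608), and the difference was -0.66 ± 0.12 (adjusted p = 0.0281).

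Nr4a3, of the family of Nr4a1, was level in NIC and fell in both regions. It read 359, 361 and 368 in NIC and 156, 136, 147 and 137 in 8R in CA1, and 313, 374 and 327 in NIC and 218, 215, 234 and 184 in 8R in CA3. After ischemia every CA1 array lay below every CA3 array (difference -0.62 ± 0.12, adjusted p = 0.0334). The third member, Nr4a2, fell in both regions, by 0.80 in CA1 and 0.54 in CA3, with a difference of -0.26 (adjusted p = 0.613). Of 25 probe sets of immediate early factors, 3 were called lower (0.0324% of all) and 1, Ier5, was called higher (0.167%), at 0.73 ± 0.14 (adjusted p = 0.0343). Of the list, 8 were positive (44.4% of all) and the median was -0.09. In CA1, 5 rose (14.5% of all) and 5 fell (4.78%). Fos had 0.08 (adjusted p = 0.948) and Fosb -0.09 (adjusted p = 0.929), and neither passed the test in CA1 (adjusted p = 0.155 and 0.322) or in CA3 (0.339 and 0.619).

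Htr5b, a serotonin receptor and CA1 marker, read 141, 137 and 128 in NIC and 62.8, 48.0, 86.8 and 48.6 in 8R in CA1, and 35.4, 33.8 and 38.4 in NIC and 31.6, 25.3, 32.8 and 26.9 in 8R in CA3. It stayed above CA3 in every array but fell 1.98-fold, and the difference was -0.79 ± 0.15 (adjusted p = 0.0334). Of 19 CA1 markers Htr5b was the 1 called (0.0324% of all lower), 8 were positive (44.4% of all), and the median was -0.09. Wfs1 had a difference of 0.03 (adjusted p = 0.987). Fxyd7, a brain regulator of the sodium pump, fell 1.78-fold in CA1, from between 345 and 447 to between 188 and 231, with a change of -0.24 in CA3 (difference -0.59 ± 0.12, adjusted p = 0.0492).

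Duox2, a dual oxidase that makes hydrogen peroxide, was the only called gene to rise in CA3 and not in CA1. It read 22.6, 38.2 and 25.7 in NIC and 21.7, 33.2, 28.8 and 27.8 in 8R in CA1, and 23.98, 45.5 and 27.6 in NIC and 68.5, 57.9, 69.9 and 85.6 in 8R in CA3. In CA1 the conditions overlapped, and in CA3 they did not. The difference was -0.88 ± 0.16 (adjusted p = 0.0297). The next genes of lower difference were not called. They were Sez6l2, Pspn, Mast3, Pcdh1, Mag, Rpusd1, Rab1b, H4c14 and Fbxl16, at -0.63 to -0.48 with adjusted p-values from 0.0655 to 0.105. Mag, a myelin protein, was the brighter in CA1 in NIC by 0.97 (log2) and in 8R by 0.40.

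Below the level of single calls, the genes of protein synthesis and RNA processing lay above the general level. Ribosomal protein genes had a positive difference in 76 of 86 probe sets (44.4% of all). They stand for 56 genes, so some probe sets share a gene. The median was 0.22 against -0.02 over all. In 38 of the 86 every 8R gap lay above every NIC gap (4.08% of all probe sets), and in 0 below. Of these probe sets 64 rose in CA1 (14.5% of all) and 34 in CA3 (9.05%). Rpl23a was the 1 called (0.167% of all higher), at 0.76 ± 0.15 (adjusted p = 0.0486), with 0.48 (adjusted p = 0.105) on its second probe set. It read 102, 69.9 and 87.7 in NIC and 154, 169.8, 149.6 and 211 in 8R in CA1, and 173, 108 and 211 in NIC and 176, 166, 178 and 169.9 in 8R in CA3. CA1 rose to about the level that CA3 had throughout. Copies of ribosomal protein genes are common in the genome, and how far these probe sets share signal with copies is uncertain. The same holds for Rpl37l4, itself named as a copy (0.67 ± 0.13, adjusted p = 0.0334).

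SR splicing factors and their kinases had a median of 0.27, with 13 of 16 positive and 0 called. Tra2b, a splicing regulator, rose in CA1 by 0.91, with a change of 0.25 in CA3, and its difference was 0.66 (adjusted p = 0.0732). Proteasome genes were positive in 36 of 40 probe sets, with a median of 0.11, and 28 rose in CA1 and 12 in CA3. Subunits of the respiratory chain and ATP synthase were positive in 53 of 73, with a median of 0.08, and 24 rose in CA1 against 5 in CA3. Translation factors were positive in 31 of 44, with a median of 0.09. In those 3 lists 0 probe sets were called in the difference. Over all probe sets 44.4% were positive, 14.5% rose in CA1 and 9.05% in CA3. The 5 of 73 respiratory probe sets that rose in CA3 lay near that share. Counts of calls in one region and not the other do not show that a list differs between regions.

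**Figure D4:**
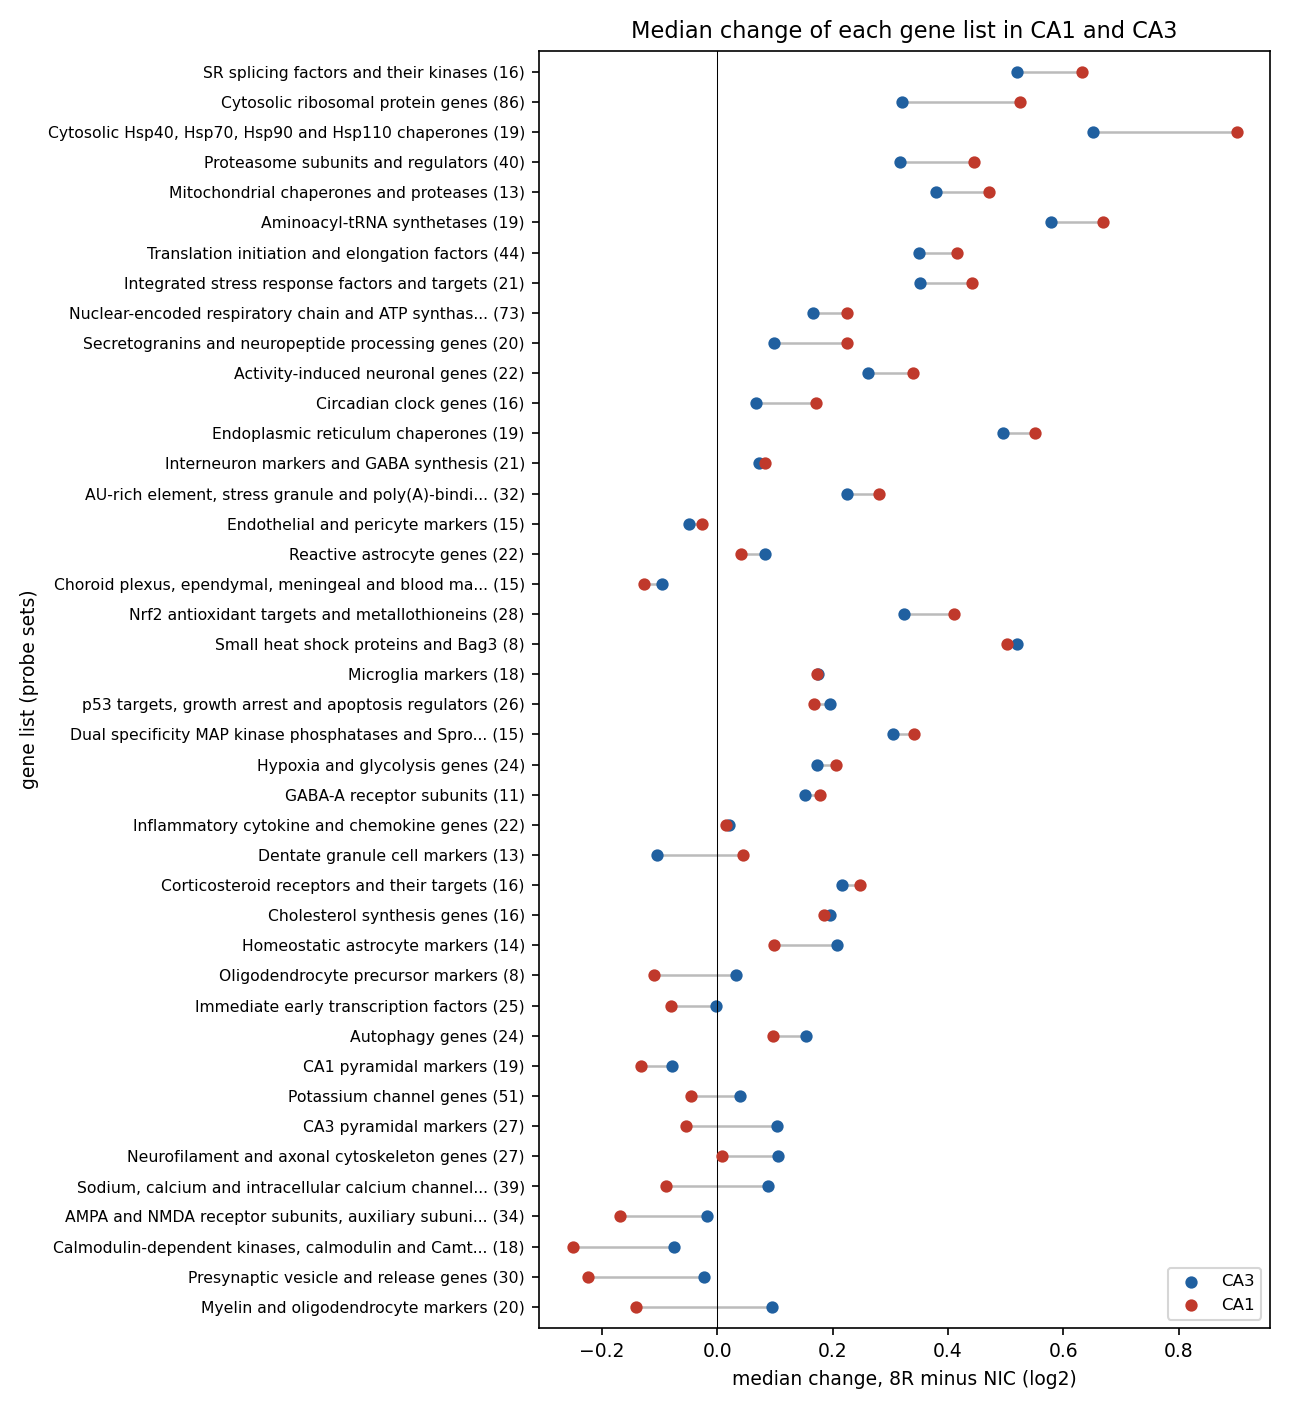
Median change after ischemia (x axis, log2, 8R minus NIC) of each of 42 gene lists (y axis, with the number of probe sets), in CA1 (red) and CA3 (blue), ordered by the median difference between regions. SR splicing factors and ribosomal proteins stand at the top here, in an order that other settings turn, and myelin, presynaptic and calmodulin kinase genes at the bottom.

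Several lists of synaptic genes lay below the general level, though not all: GABA-A receptor subunits had a median of -0.01, with 5 of 11 positive (44.4% of all probe sets). Of 30 probe sets of presynaptic vesicle and release genes, 3 had a positive difference, 0 were called, and the median was -0.25. In 7 the 8R gaps all lay below the NIC gaps (4.82% of all probe sets). Of the 30 probe sets 12 fell in CA1 (4.78% of all) and 2 in CA3 (1.02%). Prrt2, which acts in vesicle fusion, fell in both regions, by 1.07 in CA1 and 0.54 in CA3 (difference -0.53, adjusted p = 0.128). Syn1, the vesicle tether synapsin, fell by 0.65 in CA1, with -0.26 in CA3 (difference -0.39, adjusted p = 0.286). Calmodulin-dependent kinases and related factors had 2 positive of 18 and a median of -0.24, and AMPA and NMDA receptor genes with their scaffolds 7 of 34 and -0.18. Shank1, a postsynaptic scaffold, fell by 0.83 in CA1, with -0.35 in CA3 (difference -0.48, adjusted p = 0.253). Sodium and calcium channels and pumps had 9 positive of 39 and a median of -0.13, and 0 members of these lists were called in the difference.

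Myelin and oligodendrocyte markers moved with these genes. All 20 probe sets had a negative difference, with a median of -0.29 and 0 called, and the median gap of the list went from 0.55 in NIC to 0.29 in 8R. Their summed intensity ranged from 4816 to 5705 in NIC CA1, from 4558 to 5244 in 8R CA1, from 3156 to 3519 in NIC CA3 and from 3709 to 4165 in 8R CA3, so the NIC and 8R arrays overlapped in CA1 and did not in CA3. Of the 20, 2 rose (14.5% of all) and 4 fell (4.78%) in CA1, and 5 rose (9.05%) and 0 fell (1.02%) in CA3. Relative to the median of all probe sets, the list median was -0.26, and -0.18 without NIC pool 1. The other cell types moved less between regions: the median difference was -0.05 for homeostatic astrocyte markers, 0.02 for reactive astrocyte genes, 0.004 for microglia, 0.02 for endothelial cells and 0.03 for interneurons. It was -0.07 for oligodendrocyte precursors, -0.09 for CA1 pyramidal markers and -0.10 for CA3 pyramidal markers, of which 7 of 27 probe sets were positive. Reactive astrocyte genes summed to between 1374 and 1397 in NIC CA1 and between 2527 and 3216 in 8R CA1, and to between 1158 and 1229 in NIC CA3 and between 1787 and 2622 in 8R CA3. These sums include Hspb1, which read 15.9 to 17.8 in NIC CA1 and 391 to 733 in 8R CA1. Of the 22 probe sets 8 rose in CA1 (14.5% of all) and 6 in CA3 (9.05%), with median changes of 0.04 and 0.08. Gfap and Vim rose in both regions, and their differences were -0.07 and -0.11. Those of Timp1 and Cd44 were 0.62 and 0.30, and 12 of the 22 were positive (44.4% of all). The part of these cell types in the list medians was not tested.

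The polysome arrays came from pellets of the same supernatants and are therefore not independent samples. They are given beside the total RNA as a description. The 8R CA1 polysome group had 3 arrays, numbered as pools 1, 3 and 4, against 4 arrays in 8R CA3. The polysome differences are between group means over these unequal sets of pools, without pairing. All 31 higher genes had a positive difference in polysome RNA, and 5 of the 6 lower genes a negative one. Over all probe sets 59.6% had the same sign in both fractions. The median polysome difference was 0.60 for the higher genes and -0.49 for the lower. Npas4 had 1.51 in polysome RNA against 1.10 in total RNA, Gadd45g 1.19 against 1.02 and Ptgs2 1.05 against 0.85. Lox had 1.62 against 2.46, Rgs2 1.05 against 1.50 and Hspd1 0.42 against 1.04. Timd2 had 0.06 in polysome RNA, and Duox2, at 0.03, had the opposite sign. The differences between the fractions were not tested.

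**Figure D5:**
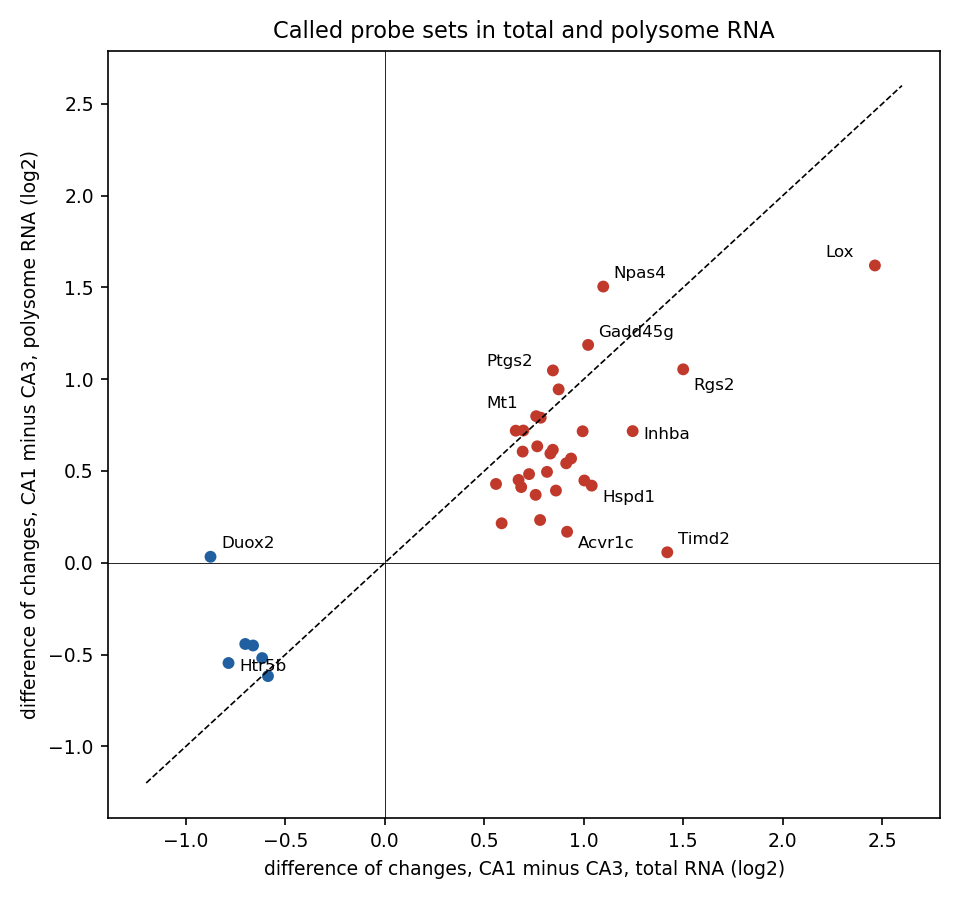
Difference between the changes in CA1 and CA3 (log2) in total RNA (x axis) and in polysome RNA (y axis) for the 37 called probe sets, red for higher and blue for lower in CA1. Points on the dashed line have equal differences, Npas4 lies above it at 1.51, and Timd2 and Duox2 lie near 0 on the y axis.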

How the data were processed

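The values deposited by the authors are linear intensities of each probe set, and the submitters' processing notes list PLIER and Affymetrix Expression Console. How the arrays were scaled to each other is not given in the sources used here. Their number, 3 or 4 per group, limits the precision. 0 arrays held identical values.

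The platform annotation gives 1 symbol for 18511 of the 36685 probe sets, several for 575 and none for 17599, and 18394 of the first matched a current gene record. They stand for 18166 genes, and 291 genes have several probe sets. Values were taken as log2(intensity + 16) with no filter and no further normalization. In limma 3.58.1 (R 4.3.3), changes in each region came from 4 group means over the 14 arrays (10 residual degrees of freedom). The difference between regions came from a fit with the pool number as a fixed block (5 residual degrees of freedom). Variances followed an intensity trend, tests were two-sided, and p-values were adjusted over 18511 probe sets by the Benjamini-Hochberg method. The fits were tested on simulated data, in which the CA1 and CA3 arrays of a number shared a pool effect. The simulation assumed the pairing and so cannot show whether the pool numbers pair the regions.

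The block was taken from the shared pool numbers. As a check, deviations from group means were correlated between the CA1 and CA3 arrays of 1 number: r was between -0.003 and 0.07 in the NIC pools and 0.22, 0.08, 0.25 and 0.50 in 8R pools 1 to 4. An array pair of its own number correlated best in 4 of 7 pools, NIC pool 3 and 8R pools 1, 3 and 4. With 3 or 4 candidates for each array, some such matches arise by chance, so the count does not establish the pairing.

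Genes were named if they were called and their gaps did not overlap, up to 15 in each direction by size, then, where fewer were called, by the lowest unadjusted p. Every called gene, up to 4 members of each of the 42 lists and 6 genes of near-equal change (under 0.2) were added. Genes outside these rules (markers, collagens, Hspa8, Fos, Fosb, Nr4a2) were chosen with their values known. The comparison, members and gene lists were chosen with earlier results of these data known. Promoters were taken from RefSeq (GRCr8), with 31 of the 37 called genes matched.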

Additional observations from a re-analysis of the deposited data

Results flagged for a closer look

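Of 104 groups of 4 arrays tested, 6 held 1 array far from the other 3, where chance alone gives about 1 in 20. In 8R CA3, pool 3 had the lowest intensity of Hspd1, 281 against 377 to 385, and of Cars1, 119 against 183 to 198. In the same group pool 1 had the highest of Perp, 48.7 against 40.5 to 41.6, and of Rpl37l4, 367 against 286 to 297. In 8R CA1, pool 4 read 102.5 for Mir18a, against 0.62 to 0.87, and pool 3 read 684 for Fbxl16, against 465 to 488.

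The change after ischemia differed between CA1 and CA3, by the test of the difference itself (limma with the pool block, adjusted p under 0.05), for 37 probe sets. Of those higher in CA1, the difference (log2) was 2.46 for Lox, 1.50 for Rgs2, 1.42 for Timd2, 1.25 for Inhba, 1.10 for Npas4, 1.04 for Hspd1, 1.02 for Gadd45g and 1.00 for Perp. It was 0.99 for Sox11, 0.94 for Calb1, 0.92 for Acvr1c, 0.91 for Cdon, 0.87 for Dok5, 0.86 for Ociad2, 0.85 for Ptgs2, 0.84 for Pnrc2, 0.83 for Pmepa1, 0.82 for Glce, 0.78 for Ankrd33b and 0.78 for Hspe1. It was 0.77 for Nptx2, 0.76 for Mt1, 0.76 for Rpl23a, 0.73 for Ier5, 0.70 for Eprs1, 0.69 for Cars1, 0.69 for Gadd45a, 0.67 for Rpl37l4, 0.66 for Frmd6, 0.59 for Dnaja1 and 0.56 for Hsph1. Of those lower in CA1 it was -0.59 for Fxyd7, -0.62 for Nr4a3, -0.66 for Egr1, -0.70 for Nr4a1, -0.79 for Htr5b and -0.88 for Duox2.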

How the results depend on the processing

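The count of regional differences depended on the pool block: 37 were called with it, 2 with no replicate block, 8 with a random replicate block and 4 in a fit of all 27 arrays without the block. Because the replicate numbers did not deviate together in every pool, the calls rest on a pairing that the labels do not state. The count was 57 above the 30th percentile of intensity, 86 after quantile normalization, 118 with array weights and 17 without a variance trend. Leaving out 1 pool gave 11 to 62. It was 11 without 8R pool 1, 62 without 8R pool 4, and 12, 18 and 12 without NIC pools 1, 2 and 3. The split of 31 higher and 6 lower became 60 and 26 after quantile normalization, 67 and 51 with array weights and 31 and 31 without 8R pool 4. In other fits the lower calls were lost. With no block, with a random block and in the fit of all 27 arrays 0 were called lower. The same held without 8R pool 1 and without NIC pool 1, and 1 was called lower without NIC pool 3. Changes called in CA1 (3563) ranged from 2086 to 5274 with 1 pool left out. Changes called in CA3 (1864) ranged from 674 to 4568, and were 4591 with array weights. Rises and falls were 2088 and 1833 in CA1 and 871 and 580 in CA3 after quantile normalization, and 2342 and 1292 in CA1 and 1062 and 318 in CA3 after median centring.

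All 37 called genes kept their direction in every alternative they entered. Of 663 such values 264 missed the threshold. Most of these directions were fixed in advance. Because the gaps did not overlap, leaving out a pool or weighting the arrays could not turn them. Fits that changed only the error or the probe sets tested kept the same estimate. Only the other pseudocounts, quantile normalization and median centring could have turned a direction. Among the 15 named genes without a call, 26 of 270 values passed it and 13 turned sign, the largest being that of Atf3. The difference of Hspb1 was 0.19 with a pseudocount of 64, 0.038 after quantile normalization, 0.01032 after median centring, 0.054 with array weights and -0.21 to 0.12 with 1 pool left out. Atf3 was 0.21 with a pseudocount of 1. With 1 pool left out, Cryab ran from -0.02695 to 0.0935 and Mir18a from -0.39 to 0.13. The causes were not tested.

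The number of pools, dim probe sets such as Timd2, and the unknown scaling between arrays limit these values.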

Other observations

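A few genes stood apart by falling in CA3. They were chosen after their values were seen, and none was called in the difference. Tlx2, a homeobox factor, was dimmer in CA1 than in CA3 in NIC, with mean intensities of 44.6 and 112, and fell by 1.35 (log2) in CA3 (adjusted p = 0.00121), with -0.40 in CA1 (adjusted p = 0.261). Its difference was 0.95 (adjusted p = 0.0503). Vgll3, a TEAD cofactor listed here as a CA3 marker, fell by 0.58 in CA3, with 0.11 in CA1, and its difference was 0.69 (adjusted p = 0.0964). The opposite case was Plcxd2, which fell by 0.60 in CA1 (adjusted p = 0.00674), with 0.09 in CA3, and had a difference of -0.69 (adjusted p = 0.187). Jun rose in both regions on both of its probe sets, with differences of 0.42 and 0.46 (adjusted p = 0.414 and 0.128).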
